A study of Mus musculus with 30 samples.

Results

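The genes described here are the mouse collagens and laminins other than collagen VI, measured by bulk RNA sequencing of prefrontal cortex at postnatal day 40. They were chosen by symbol alone (a collagen alpha chain of any type but VI, or a laminin alpha, beta or gamma chain), with a mean normalized count of at least 10 over the 30 libraries. Of 49 matching symbols 48 passed, among 16824 of 18240 genes in the table that met the same limit. The 48 members were 11 fibrillar collagens, 9 basement membrane collagens, 11 laminin chains, 9 fibril-associated collagens with interrupted triple helices (FACIT), 4 transmembrane collagens and 4 others (Col26a1, Col8a1, Col8a2 and Col28a1). The member just outside the limit was Col10a1, at a mean of 8.29, and the members just inside it were Col4a3 at 18.5 and Col4a4 at 26.3. All members entered the analysis through their mean over all libraries, so no group alone decided which were tested.

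The mice were C57BL/6J, either wild type (WT) or heterozygous (HT) for a mutation of Adnp, which encodes a zinc finger transcription factor mutated in a human neurodevelopmental syndrome. The vehicle groups comprised 4 female and 4 male WT libraries and 4 female and 3 male HT libraries. HT mice given fluoxetine, an inhibitor of serotonin reuptake, gave 4 female and 4 male libraries, and HT mice given lithium, a mood stabilizer, gave 3 female and 4 male libraries. No WT library carried a drug label, so a drug difference was measured on the HT background only. The labels state neither the structure of the mutant allele nor the dose and duration of each drug. They also do not say that the libraries of a group came from separate mice, and p-values then measure only the spread between libraries, which may be technical.

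Collagens are trimers of alpha chains wound into a triple helix. Fibrillar collagens (types I, II, III, V, XI, XXIV and XXVII) form the cables of connective tissue, while type IV collagen forms a sheet-like network in basement membranes. Laminins, cross-shaped trimers of an alpha, a beta and a gamma chain, form the cell-binding layer of these membranes. In the brain these proteins lie mainly in the walls of blood vessels and in the meninges, where endothelial cells, mural cells, fibroblasts and astrocyte endfeet make them, and some members, such as the transmembrane Col25a1, are made by neurons.

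Genomic stretches are shown for 4 members, a pair with a shared start region and a pair with opposite relations across libraries. Col4a4 (chromosome 1, 82448423 to 82586849, minus strand, GRCm38) and Col4a3 (chromosome 1, 82586921 to 82722059, plus strand) encode chains of the same type IV trimer and start head to head. The whole interval between both starts, 71 bases at chr1:82586850-82586920, is given on the minus strand, 5′ to 3′, toward Col4a4. It held 69% G and C. Col3a1 (chromosome 1, 45311538 to 45349706, plus strand) and Col5a1 (chromosome 2, 27886425 to 28039514, plus strand) encode fibrillar chains that tracked a sum of meningeal marker genes in opposite directions across libraries. The 250 bases before each start are given on the plus strand, at chr1:45311288-45311537 with 35.2% G and C for Col3a1 and at chr2:27886175-27886424 with 76.4% for Col5a1. Capitals mark every match, on either strand, to 3 motifs. The first was GGGCGG, which reads as CCGCCC from the opposite strand. The second was CCAAT, which reads as ATTGG from the opposite strand. The last was TATAAA, which reads as TTTATA from the opposite strand.

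Col4a4 to Col4a3 interval: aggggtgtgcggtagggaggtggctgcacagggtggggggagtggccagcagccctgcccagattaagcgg

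Col3a1 upstream: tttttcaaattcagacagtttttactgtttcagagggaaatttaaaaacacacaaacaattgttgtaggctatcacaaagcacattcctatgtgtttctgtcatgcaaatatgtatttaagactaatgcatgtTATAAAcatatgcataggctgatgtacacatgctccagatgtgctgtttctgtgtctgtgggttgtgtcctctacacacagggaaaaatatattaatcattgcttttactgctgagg

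Col5a1 upstream: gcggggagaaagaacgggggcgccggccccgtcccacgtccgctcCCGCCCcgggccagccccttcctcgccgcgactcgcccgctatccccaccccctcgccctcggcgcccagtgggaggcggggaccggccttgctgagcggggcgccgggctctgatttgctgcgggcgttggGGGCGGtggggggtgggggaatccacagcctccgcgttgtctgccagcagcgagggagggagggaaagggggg

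The Col4a4 to Col4a3 interval matched none of the 3 motifs, the Col3a1 window held 1 TATAAA and the Col5a1 window held 2 copies of GGGCGG, 1 on each strand. No marked match overlapped another. In the RefSeq promoter table for GRCm38, 33 of the 48 members matched a total of 36 windows of 250 bases upstream of a start. GGGCGG was present in 19 of them (52.8%), CCAAT in 13 (36.1%) and TATAAA in 4 (11.1%), against 32.7%, 33.8% and 12.4% of 32851 such windows over all genes. These are letter matches and say nothing of binding.

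The 30 libraries held 23771758 to 34307061 reads each, recovered from the deposited values. The 42 pairs of libraries within a group all differed by more than sampling noise, with a chi-square per degree of freedom of 4.78 to 32. Adnp overlaps a second annotated gene, Gm20716, and reads can be split between the pair. Their summed normalized count was 3404 to 3887 in the 22 HT libraries and 4226 to 4433 in the 8 WT libraries, with no overlap between genotypes. Adnp on its own did not separate them, at 1886 to 2491 in HT and 1703 to 2228 in WT. Summed cortical neuron markers ran from 111060 to 149990 in the 30 libraries. Summed markers of neighbouring regions varied more, from 4626 to 34451 for striatum and from 3704 to 20430 for olfactory bulb. Col6a2, a collagen VI chain left out of the set, had a log2 difference of 0.99 between HT and WT vehicle libraries (limma adjusted p = 1.09e-11), at 1437 to 1791 against 727 to 960.

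The members differed widely in level. Per kilobase of exon, Col4a2 stood first at a mean normalized count of 453 per kb (390 to 534 over the 30 libraries) and Col4a1 second at 284 (242 to 312). The chains Col4a1 and Col4a2 form the common type IV trimer of vessel walls, and their genes also start head to head, overlapping by 22 bases on chromosome 8. Next was Col25a1, the transmembrane collagen first found in amyloid plaques, at 180 per kb. It was followed by Lamb2, the laminin beta chain of mature vessels, at 164, and by Lamc1, the gamma chain shared by most laminins, at 147. The FACIT Col16a1 also averaged 147 per kb. Among fibrillar chains Col11a2 led at 130 per kb, ahead of Col5a1 at 122, Col1a2 at 74.1, Col24a1 at 73.0 and Col1a1 at 67.0. At the bottom were the cartilage collagen Col2a1 at 3.79 per kb, Col4a4 at 2.48 and Col4a3 at 1.86, so chains of type IV collagen held both ends of the order.

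**Figure D1:**
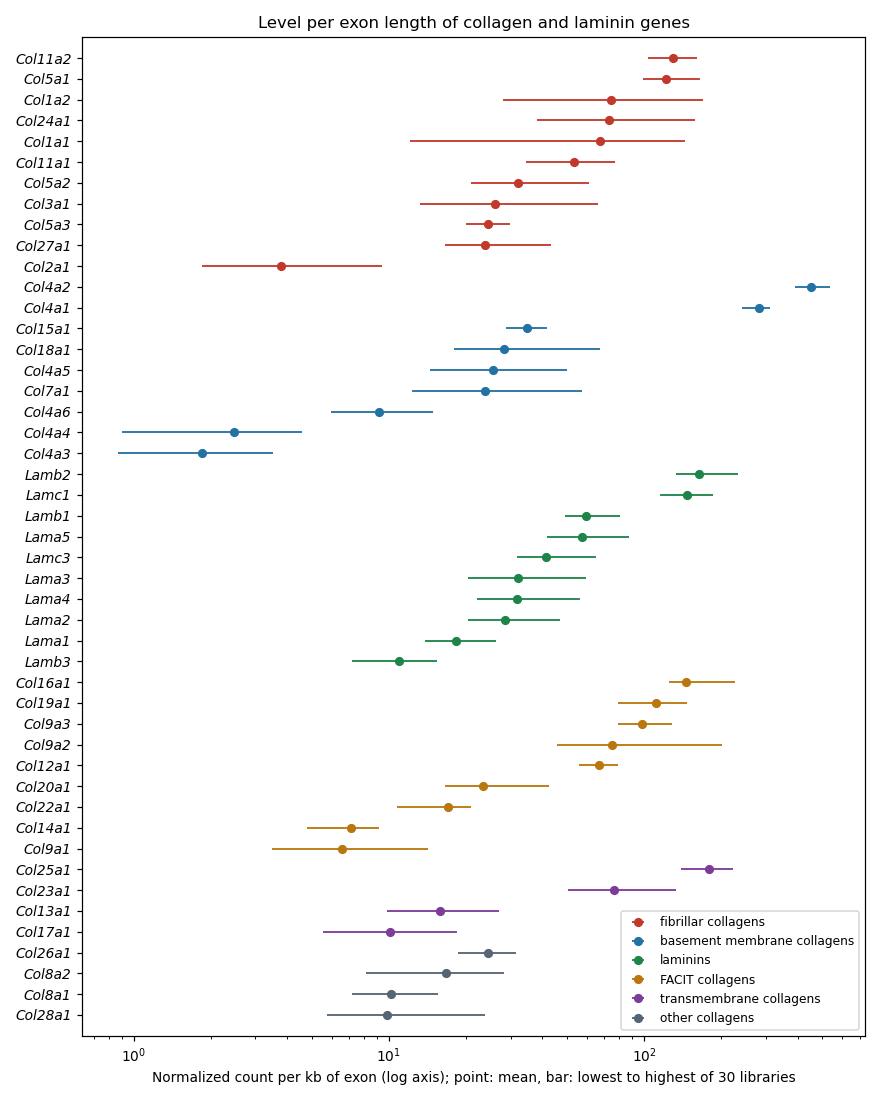
Level of 47 members, as normalized count per kilobase of exon on a log axis, grouped by class; points are means over the 30 libraries and bars run from the lowest to the highest library. Col4a2 and Col4a1 stand at the top at 453 and 284 per kb with short bars, Col4a4 and Col4a3 at the bottom at 2.48 and 1.86 per kb.

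The abundant type IV chains were also the steadiest members. The coefficient of variation over the 30 libraries was 5.88% for Col4a2 and 6.97% for Col4a1, and the highest library exceeded the lowest 1.37-fold and 1.29-fold. Col1a1, the main chain of type I collagen, was the least steady of the abundant fibrillar chains, with normalized counts of 79.2 to 954, a 12-fold range, and a coefficient of variation of 42.5%. Its partner Col1a2 spanned 6.07-fold, Col4a4 5.08-fold and Col3a1 4.98-fold. The median SD between libraries of a group was 0.276 on the log2 scale over the 48 members and 0.134 over all 16824 genes tested. By class it was 0.351 for fibrillar, 0.341 for transmembrane, 0.334 for basement membrane and 0.284 for the other collagens, 0.217 for FACIT and 0.202 for laminin chains. A group difference therefore had to be larger for a typical member than for a typical gene to stand clear of the spread.

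The first comparison asked how HT vehicle libraries differed from WT vehicle libraries, with each sex weighted equally. No member passed the test (limma, Benjamini-Hochberg adjusted p under 0.05 over all genes), where 0.731% of all genes did. At an unadjusted p under 0.05 there were 3 members, Col4a4 and Lama2 higher and Col26a1 lower, or 6.25% of members against 6.6% of all genes. The tools edgeR and DESeq2 also called 0 members. Of the 48 members 30 had a positive difference, with a median of 0.05 on the log2 scale against -0.00102 over all genes. No member had groups that did not overlap, against 0.452% of all genes. The same was true of the 4 comparisons below, where 0.0535% (fluoxetine), 0.0773% (lithium), 0.565% (HT fluoxetine against WT vehicle) and 0.725% (HT lithium against WT vehicle) of all genes had separate groups.

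The smallest p belonged to Col4a4, a chain of the type IV trimer best known from the glomerular basement membrane. In the WT vehicle females its normalized counts were 16.1, 32.1, 17.8 and 9.51, and in the males 10.8, 17.1, 16.9 and 18.4. In the HT vehicle females they were 41.7, 25.4, 25.0 and 20.4, and in the males 29.4, 30.6 and 23.7. All HT vehicle libraries lay above all WT libraries but 1, WT vehicle female 2, whose 32.1 exceeded all but the highest HT value. The means were 28.0 ± 6.93 (SD, n = 7) and 17.4 ± 6.81 (SD, n = 8), a log2 difference of 0.71 (SE 0.201, 95% interval 0.297 to 1.12) with a limma adjusted p of 0.128. Without WT vehicle female 2 the difference was 0.85 with an adjusted p of 0.0193, and with the summed meningeal fibroblast markers as a covariate it was 0.77 with an adjusted p of 0.020. Of 42 alternatives to the main fit, only these 2 called Col4a4. Leaving out each of the 15 libraries compared gave 0.58 (without WT vehicle female 4) to 0.85, with a limma adjusted p of up to 0.291. The counts of Col4a4 are low, and the log2(value + 1) scale understates such differences. Col4a3, across the 71 bases shown above, was at a low of 8.63, a median of 16.1 and a high of 18.8 in WT vehicle and at 13.7, 14.3 and 22.8 in HT vehicle libraries. Its log2 difference was 0.23 (limma adjusted p = 0.948), and the groups overlapped.

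The other basement membrane collagens stood closer between genotypes. Col4a1 was at 1808, 2092 and 2264 (lowest, median and highest) in WT vehicle and at 2033, 2197 and 2317 in HT vehicle libraries, a log2 difference of 0.09 (limma adjusted p = 0.767). Col4a2 was at 2579, 3023 and 3276 in WT and at 2827, 3018 and 3187 in HT, with a log2 difference of -0.00. Col15a1, a collagen that bridges basement membrane and stroma, was at 209, 217 and 253 in WT and at 208, 227 and 237 in HT. The HT values of Col4a2 and Col15a1 lay almost wholly within the range of the WT values. Of the 9 genes of the class 7 had a positive difference, with a median of 0.0949.

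Among laminin chains Lama2, the alpha chain of muscle, nerve and perivascular basement membranes that is mutated in a congenital muscular dystrophy, had the smallest p. Its lowest, median and highest counts were 333, 417 and 480 in WT vehicle and 385, 462 and 534 in HT vehicle libraries. The ranges overlapped, and the means of 409 ± 47.0 (SD, n = 8) and 466 ± 51.4 (SD, n = 7) gave a log2 difference of 0.20 (SE 0.0872, limma adjusted p = 0.644). With the meningeal covariate the Lama2 difference was 0.24 and passed (adjusted p = 0.00706). Of 43 alternatives to the main fit, only this 1 called Lama2. Leaving out each of the 15 libraries compared gave 0.15 (without HT vehicle female 1) to 0.25, with a limma adjusted p of 0.281 to 0.967. Lamc1 was at 1015, 1176 and 1373 in WT and 1022, 1252 and 1460 in HT. Lama1, an alpha chain that the meninges contribute to the surface of the brain, was at 134, 177 and 207 in WT and 143, 160 and 183 in HT. Both chains overlapped over most of their range, and 7 of the 11 laminins had a positive difference, with a median of 0.0584.

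The fibrillar collagens overlapped between genotypes. Col1a1 was at 79.2, 362 and 514 in WT vehicle and at 164, 384 and 721 in HT vehicle libraries, a log2 difference of 0.47 (limma adjusted p = 0.920). Col3a1, the chain of type III collagen in vessel walls and loose connective tissue, was at 130, 210 and 308 in WT and 144, 245 and 364 in HT. Col24a1, a fibrillar chain with a neuronal pattern in cortex, was at 291, 423 and 594 in WT and at 444, 490 and 1116 in HT, a log2 difference of 0.38 (limma adjusted p = 0.776). Col5a1, which nucleates type I fibrils, was at 842, 1040 and 1178 in WT and at 854, 1020 and 1247 in HT. None of these pairs of ranges was separate, and 7 of the 11 fibrillar genes had a positive difference, with a median of 0.0882.

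Of the remaining classes, the FACIT collagens had 6 of 9 positive differences (median 0.0375), the transmembrane collagens 2 of 4 (0.0581) and the others 1 of 4 (-0.125). Col26a1 (chromosome 5, 136741759 to 136883209, minus strand), a short collagen with an EMI domain, was at 192, 225 and 257 in WT vehicle and 167, 190 and 237 in HT vehicle libraries. Its log2 difference was -0.21 (SE 0.0917, limma adjusted p = 0.620), and the ranges overlapped. Col12a1, a FACIT that decorates type I fibrils, was at 891, 982 and 1128 in WT and 888, 1014 and 1207 in HT. Col25a1 was at 2070, 2397 and 2689 in WT and 1809, 2462 and 2893 in HT. The HT range enclosed the WT range for both genes.

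**Figure D2:**
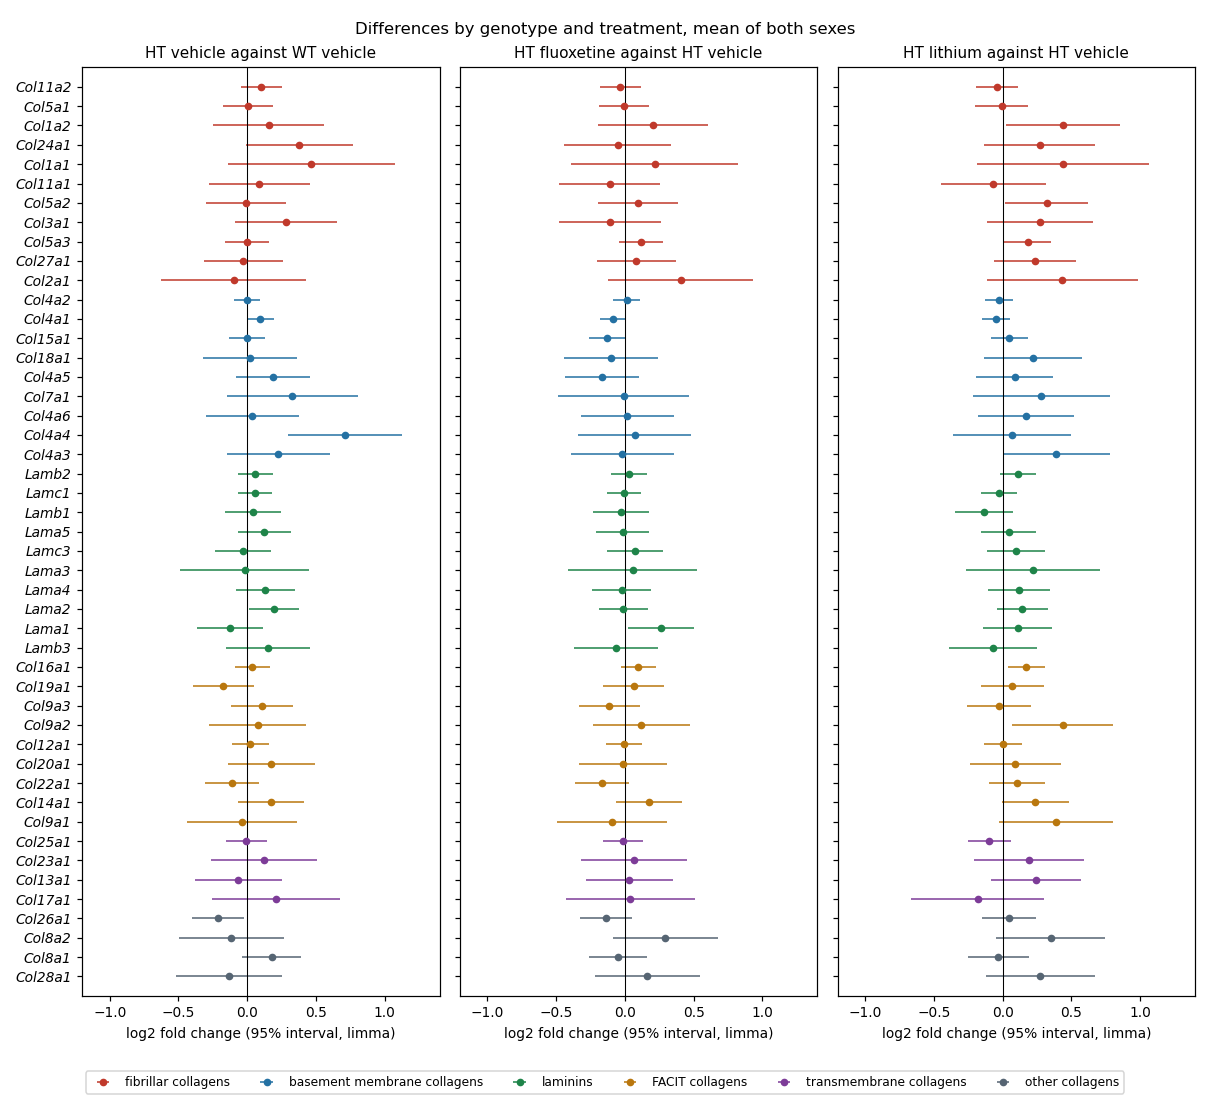
Log2 difference of 47 members with its 95% interval (limma), in HT against WT vehicle, HT fluoxetine against HT vehicle and HT lithium against HT vehicle, by class. No member passed the adjusted threshold in these 3 comparisons; Col4a4 at 0.71 in the genotype panel has an interval of 0.297 to 1.12, and most members lie above 0 in the lithium panel.

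The second comparison set HT fluoxetine against HT vehicle libraries. No member passed the limma test, where 0.0357% of all genes did, and 1 member, Lama1, had an unadjusted p under 0.05 (2.08% against 2.63% of all genes). Both edgeR and DESeq2 called 0 members. Positive differences numbered 23 of 48, with a median of -0.00629, and the class medians ran from -0.0179 for basement membrane to 0.0837 for fibrillar collagens. Lama1 was at 143, 160 and 183 in HT vehicle and 154, 194 and 231 in HT fluoxetine libraries, a log2 difference of 0.26 (SE 0.117, limma adjusted p = 1). The upper part of the fluoxetine range lay above all vehicle libraries, and the lower part overlapped it.

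The next members by p were lower with fluoxetine and did not pass either. Col15a1 was at 208, 227 and 237 in HT vehicle and 184, 201 and 227 in HT fluoxetine libraries, a log2 difference of -0.13 (SE 0.0642). Col4a1 was at 2033, 2197 and 2317 against 1880, 2092 and 2212, a difference of -0.09 (SE 0.0470). Col22a1, a FACIT of tissue junctions, was at 133, 156 and 184 against 98.7, 144 and 172, a difference of -0.17 (SE 0.0954). All 3 had a limma adjusted p of 1 and overlapping ranges. The 15 meningeal fibroblast markers all had positive differences here (median 0.214), and 2, Foxd1 and Slc47a1, had an unadjusted p under 0.05, while the members did not share one direction. With the summed meningeal markers as a covariate the members' median was -0.0416, with 15 of 48 positive and 0 called, and the Lama1 difference was 0.18.

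The third comparison set HT lithium against HT vehicle libraries. Again 0 members passed the limma test, where 0.0892% of all genes did. At an unadjusted p under 0.05 there were 6 members, all higher with lithium: Col16a1, Col9a2, Col5a3, Col5a2, Col1a2 and Col4a3 (12.5%). Over all genes 5.72% had such a p, and 3.41% with a higher value. With edgeR and DESeq2 0 members were called as well. Positive differences numbered 35 of 48 with a median of 0.111, against -0.00389 over all genes. By class they numbered 8 of 11 fibrillar (median 0.269), 7 of 9 basement membrane (0.0863), 7 of 11 laminin (0.0982), 8 of 9 FACIT (0.102), 2 of 4 transmembrane (0.0485) and 3 of 4 other members (0.16).

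Col16a1 (chromosome 4, 130047840 to 130099283, plus strand), a FACIT found with thin fibrils near basement membranes, had the smallest p. It was at 847, 964 and 1016 in HT vehicle and 949, 1028 and 1543 in HT lithium libraries. A single library, HT lithium male 4, held the 1543, and the next highest male held 1049. The means were 952 ± 60.3 (SD, n = 7) and 1088 ± 203 (SD, n = 7), a log2 difference of 0.17 (SE 0.0648, limma adjusted p = 0.825). Col9a2, a chain of the FACIT type IX, was at 176, 187 and 311 in HT vehicle and 204, 260 and 624 in HT lithium libraries, with means of 210 ± 47.3 and 303 ± 145 (SD, n = 7 each). Its difference of 0.44 (SE 0.177) had a limma adjusted p of 0.858, and the ranges overlapped.

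The type V chains Col5a2 and Col5a3 and the type I chain Col1a2 lay in the same direction without passing. Col5a2 was at 237, 271 and 408 in HT vehicle and 256, 353 and 585 in HT lithium libraries, a log2 difference of 0.32. Col5a3 was at 142, 153 and 196 against 160, 181 and 201, a difference of 0.18. Col1a2 was at 506, 857 and 1056 against 745, 1138 and 2111, with means of 814 ± 172 and 1183 ± 455 (SD, n = 7 each) and a difference of 0.44. Each of the 3 had a limma adjusted p of 0.873 and ranges that overlapped. Col4a3 was at 13.7, 14.3 and 22.8 against 12.3, 25.6 and 34.9, a difference of 0.39 (limma adjusted p = 0.873). Col4a1 ran from 1830 to 2326 with lithium against 2033 to 2317 in HT vehicle, and Col4a2 from 2775 to 3182 against 2827 to 3187, so the abundant chains overlapped almost completely.

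HT lithium male 4 was the highest of the 30 libraries for 30 of the 48 members (62.5%), against 15.8% of all genes tested. By class it was highest for 7 of 11 fibrillar, 6 of 9 basement membrane, 8 of 11 laminin, 4 of 9 FACIT, 2 of 4 transmembrane and 3 of 4 other members. Without it the lithium median of the members was 0.067 in place of 0.111, the fibrillar median 0.158 in place of 0.269, and 3 members in place of 6 had an unadjusted p under 0.05. Without it 33 of 48 members had a positive difference. The difference of Col16a1 was then 0.10, that of Col9a2 0.27, that of Col5a2 0.22 and that of Col1a2 0.32.

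Marker genes of meningeal fibroblasts moved with the lithium values. The sum of 15 such genes, none at 0 in any library, was 4493 to 9868 (median 7180) in WT vehicle, 4877 to 8124 (median 6577) in HT vehicle, 5765 to 9742 (median 6837) in HT fluoxetine and 6146 to 16764 (median 8283) in HT lithium libraries. The 16764 was HT lithium male 4 alone, and the next lithium library, male 1, stood at 9604, under the highest WT sum. With HT lithium male 4 included, all 15 had positive lithium differences (median 0.434), 12 of them at an unadjusted p under 0.05 and 0 called. The 10 endothelial and 10 mural markers had lithium medians of 0.0221 and 0.115. With the meningeal sum as a covariate the lithium median of the members was -0.0208, with 19 of 48 positive, and with the endothelial and mural sum it was 0.0139, with 27 of 48. In bulk tissue more cells of a type and more RNA per cell cannot be told apart. Marker genes of neighbouring brain regions had lithium medians of -0.739 over 7 striatal and 1.27 over 6 olfactory bulb genes, with 0 called and 0 at an unadjusted p under 0.05 (lowest limma adjusted p = 0.879), and their part in the members' values was not tested.

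Treated HT libraries were also set against WT vehicle libraries. Genotype and drug both differ in these comparisons, so a difference cannot be credited to the drug. They also share the WT libraries with each other and with the genotype comparison, so the 3 do not count as separate evidence. In HT fluoxetine against WT vehicle 2 members were called (4.17%), where 1.49% of all genes were, and 8 members had an unadjusted p under 0.05 (16.7% against 12.1%). Col4a4 was higher, at 18.0, 31.1 and 38.8 (lowest, median and highest) against 9.51, 17.0 and 32.1 in WT vehicle libraries. All but 1 of the fluoxetine libraries exceeded 7 of the 8 WT libraries, and WT vehicle female 2 lay inside the fluoxetine range. The means of 29.6 ± 6.74 and 17.4 ± 6.81 (SD, n = 8 each) gave a log2 difference of 0.78 (SE 0.193, limma adjusted p = 0.0336). Against HT vehicle the fluoxetine difference of Col4a4 was 0.07, and that of HT vehicle against WT vehicle was 0.71. Neither of these passed. Col26a1 was lower, at 152, 174 and 213 against 192, 225 and 257, with means of 177 ± 21.6 and 225 ± 25.1 (SD, n = 8 each) and a log2 difference of -0.35 (SE 0.0881, limma adjusted p = 0.0420). Its ranges met between 192 and 213. In HT vehicle libraries the Col26a1 difference from WT was -0.21 and did not pass.

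Both calls sat near the threshold. With only these 2 groups in the fit neither passed, with a limma adjusted p of 0.0967 for Col4a4 and 0.0614 for Col26a1. With edgeR Col26a1 was called and Col4a4 did not pass (adjusted p = 0.0520). Of the 16 libraries compared, leaving out any of 10 ended the Col4a4 call, with a limma adjusted p of 0.0533 to 0.0880. It was kept without HT fluoxetine female 4, HT fluoxetine male 3, WT vehicle female 2 or WT vehicle male 2, 3 or 4. Leaving out any of 12 ended the Col26a1 call, with an adjusted p of 0.0579 to 0.102. It was kept without HT fluoxetine female 3, HT fluoxetine male 1, WT vehicle female 4 or WT vehicle male 3. Col22a1, at 98.7, 144 and 172 against 143, 165 and 194, did not pass with a difference of -0.28 (limma adjusted p = 0.162). Col1a1, at 325, 444 and 722 against 79.2, 362 and 514, did not pass with 0.68 (limma adjusted p = 0.325).

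In HT lithium against WT vehicle 2 members were called (4.17%), where 1.97% of all genes were. Lama2 (chromosome 10, 26980036 to 27619758, minus strand) was higher, at 396, 545 and 765 against 333, 417 and 480. The median lithium library lay above every WT library, and the lowest lay inside the WT range. The means of 534 ± 118 (SD, n = 7) and 409 ± 47.0 (SD, n = 8) gave a log2 difference of 0.34 (SE 0.0872, limma adjusted p = 0.0379). Col4a4 was higher, with lithium values of 22.6, 21.3 and 25.6 in females and 37.9, 26.8, 34.1 and 48.4 in males. All of these exceeded every WT vehicle library but female 2. The mean of 31.0 ± 9.75 (SD, n = 7) against 17.4 gave a log2 difference of 0.78 (SE 0.201, limma adjusted p = 0.0385). In HT vehicle libraries the differences from WT were 0.20 for Lama2 and 0.71 for Col4a4, and neither passed.

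These calls too depended on single libraries. With only these 2 groups in the fit neither passed, with a limma adjusted p of 0.123 for Lama2 and 0.101 for Col4a4. With edgeR Lama2 was called and Col4a4 did not pass (adjusted p = 0.0593). DESeq2 called both, and also Col24a1, Col9a2 and Col16a1. The Lama2 call was lost without any of 11 of the 15 libraries compared (limma adjusted p 0.0504 to 0.153) and kept without HT lithium female 1, HT lithium male 1 or 2, or WT vehicle female 2. The Col4a4 call was lost without any of 12 (limma adjusted p 0.0513 to 0.113) and kept without HT lithium male 2, WT vehicle female 2 or WT vehicle male 4. Without HT lithium male 4 the difference was 0.27 for Lama2 (adjusted p = 0.0896) and 0.71 for Col4a4 (adjusted p = 0.10). Without WT vehicle female 2, 6 members were called, adding Col1a1 (1.14, limma adjusted p = 0.0117), Col1a2 (0.73, 0.0254), Col3a1 (0.68, 0.0209) and Col24a1 to Lama2 (0.39, 0.00895) and Col4a4 (0.92, 0.00555). Without HT lithium female 2, Col4a3 was called (0.75, limma adjusted p = 0.0352). Without HT lithium male 2, 5 members were called (Lama2, Col14a1, Col9a2, Col16a1 and Col4a4), and without HT lithium female 3 Col14a1 alone. Over all genes, these 2 refits called 503 and 196, against 332 in the main fit. Those 2 were the highest and lowest of the 15 refits without 1 library compared. The 13 other alternatives, DESeq2 among them, called 163 to 486 genes. With the meningeal sum as a covariate the Lama2 difference was 0.20 (adjusted p = 0.0516) and that of Col4a4 0.58 (adjusted p = 0.162); with the endothelial and mural sum they were 0.14 (0.406) and 0.42 (0.458).

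Beyond the called pair, 14 more members had an unadjusted p under 0.05 in HT lithium against WT vehicle, all higher, which with the called ones made 16 of 48 (33.3% against 17.7% of all genes, 9.07% with a higher value). They included the fibrillar chains Col24a1 at a log2 difference of 0.65 (limma adjusted p = 0.0784), Col3a1 at 0.55 and Col1a1 at 0.90 (0.118 each) and Col1a2 at 0.59 (0.123). Col4a3 stood at 0.62 (0.0762), the FACIT collagens Col14a1 at 0.41 (0.0638), Col16a1 at 0.21 (0.0815) and Col9a2 at 0.51 (0.127). Positive differences numbered 39 of 48 with a median of 0.178, and by class 10 of 11 fibrillar (median 0.312), 8 of 9 basement membrane (0.238), 8 of 11 laminin (0.0785) and 7 of 9 FACIT members (0.21). The meningeal markers had 15 of 15 positive differences (median 0.421). Without HT lithium male 4 the members' median was 0.109 with 38 of 48 positive and 0 called.

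**Figure D3:**
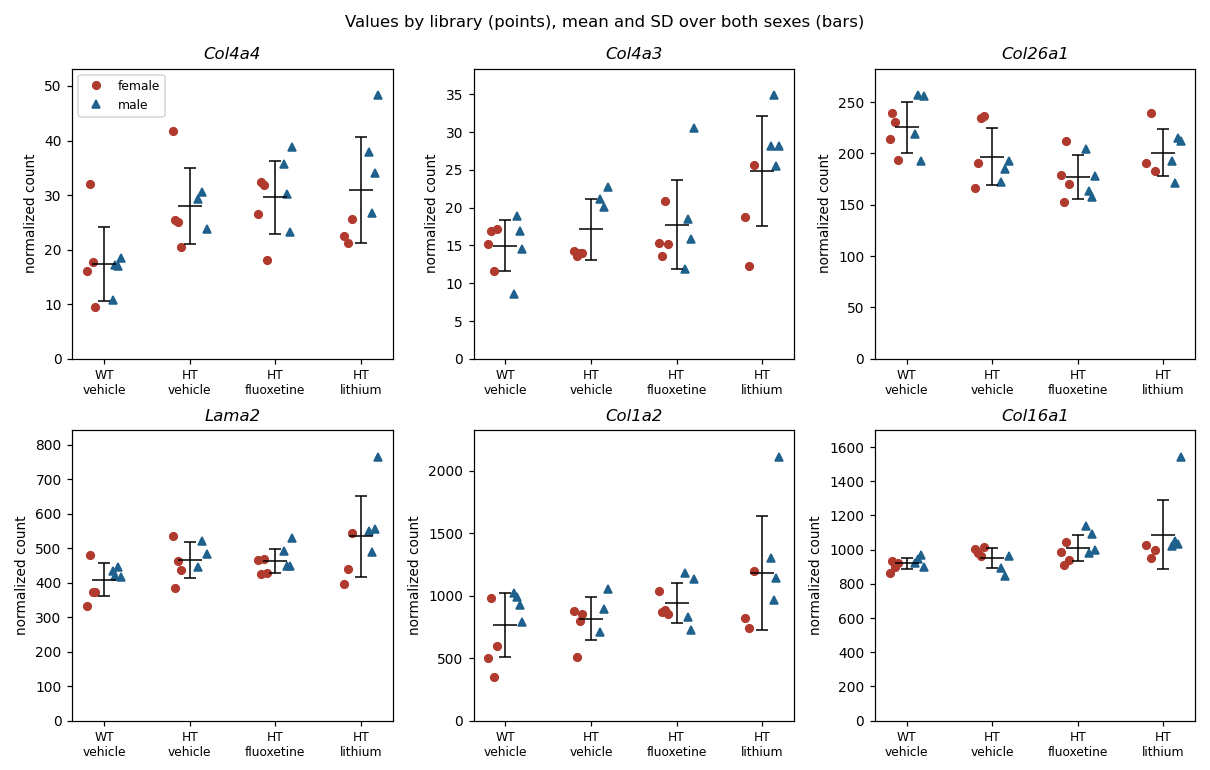
Normalized count in each of the 30 libraries for Col4a4, Col4a3, Col26a1, Lama2, Col1a2 and Col16a1, by genotype and treatment (circles female, triangles male, bars mean and SD over both sexes). WT vehicle libraries of Col4a4 lie at 9.51 to 18.4 apart from 1 at 32.1, and the highest HT lithium points of Col16a1 (1543), Col1a2 (2111) and Lama2 (765) stand above the rest.

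Differences between the sexes were tested as the male minus the female difference. For genotype 0 members were called (0% of all genes), with Col5a3 (-0.33) and Lamc3 (-0.42) at an unadjusted p under 0.05, where 2.05% of all genes were. For fluoxetine 0 members were called (0% of all genes), with Col19a1 (0.52), Col12a1 (0.28) and Col24a1 (0.78) at an unadjusted p under 0.05, where 5.96% of all genes were. For both, edgeR and DESeq2 called 0 members as well. For lithium 0 members were called by limma, edgeR or DESeq2 (0% of all genes by limma). At an unadjusted limma p under 0.05 there were 11 members, all more positive in males (22.9% against 10% of all genes, 5.36% in that direction). Col16a1 had lithium differences of 0.00 in females and 0.34 in males, a difference of 0.34 (limma adjusted p = 0.476). Lama1 had -0.16 in females and 0.38 in males, a difference of 0.54 (limma adjusted p = 0.487). The lithium by sex median of the members was 0.327 with 39 of 48 positive, and 0.157 with 3 members at an unadjusted p under 0.05 without HT lithium male 4. The same median was 0.681 for meningeal fibroblast (15 of 15 positive, 4 at an unadjusted p under 0.05), 2.23 for olfactory bulb (6 of 6), -1.88 for striatal (0 of 7) and -0.667 for oligodendrocyte genes (0 of 6), 0 of them called. With the meningeal sum as a covariate the members' median was 0.0734, with 30 of 48 positive, and the part of the other lists was not tested.

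Variation between libraries of the same group was shared by many members. Deviations from the group means were correlated over the 30 libraries with the meningeal sum and with the endothelial and mural sum, in a family of 104 relations with permutation p-values adjusted by Benjamini-Hochberg. All points share a library's dissection, depth and scaling. The same relations were not computed over all genes, so the counts below cannot be set against a share of all genes. With the meningeal sum 27 members had a positive and 4 a negative relation that passed by both Pearson's r and Spearman's rho, with a median r of 0.579 over all 48. It was 0.487 without the 2 libraries farthest from the median of the sum, HT lithium male 4 and WT vehicle female 2. By class the median r was 0.755 for laminin, 0.739 for the other collagens, 0.625 for fibrillar, 0.474 for transmembrane, 0.418 for basement membrane and 0.3 for FACIT members. With the endothelial and mural sum 28 members had a positive and 4 a negative relation that passed by both, with a median r of 0.51. It was 0.485 without HT lithium male 2 and WT vehicle female 2, the 2 farthest on that sum. Class medians there ran from 0.279 for FACIT to 0.723 for the other collagens, with 0.439 for basement membrane members.

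The highest r belonged to Col1a2, at r = 0.944 and rho = 0.936 with the meningeal sum (permutation p = 1e-05 each, the smallest the resamples can give, adjusted 3.06e-05 and 6.5e-05), and r = 0.913 without the 2 farthest libraries. Col1a1 had r = 0.824 and rho = 0.831 (0.783 without the 2), and Col3a1 r = 0.764 and rho = 0.687 (0.609 without the 2). Lama2 had r = 0.871 and rho = 0.883 with the meningeal sum (0.787 without the 2) and r = 0.879 and rho = 0.85 with the endothelial and mural sum. Col4a4 had r = 0.557 and rho = 0.504 with the meningeal sum (permutation, adjusted 0.00273 and 0.00844), and 0.362 without the 2. With the endothelial and mural sum Col4a4 had r = 0.704 and rho = 0.658 (permutation, adjusted 7.8e-05 and 0.000325). There r was 0.582 without the 2 libraries farthest on that sum.

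Some members ran the other way. Col5a1 had r = -0.716 and rho = -0.69 with the meningeal sum (-0.676 without the 2). The upstream windows of Col5a1 and Col3a1 are shown above because their relations differed in sign, and a link between sequence and sign was not tested. Col11a2 (r = -0.46) and Col25a1 (r = -0.397) also had negative relations that passed. The abundant vessel chains had weak relations with the meningeal sum, r = 0.264 and rho = 0.276 for Col4a1 (permutation, adjusted 0.193 and 0.173) and r = -0.11 and rho = -0.0652 for Col4a2 (adjusted 0.594 and 0.761). With the endothelial and mural sum Col4a1 had r = 0.431 and rho = 0.396 (adjusted 0.0249 and 0.0445) and Col4a2 r = 0.0658 and rho = -0.00467.

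**Figure D4:**
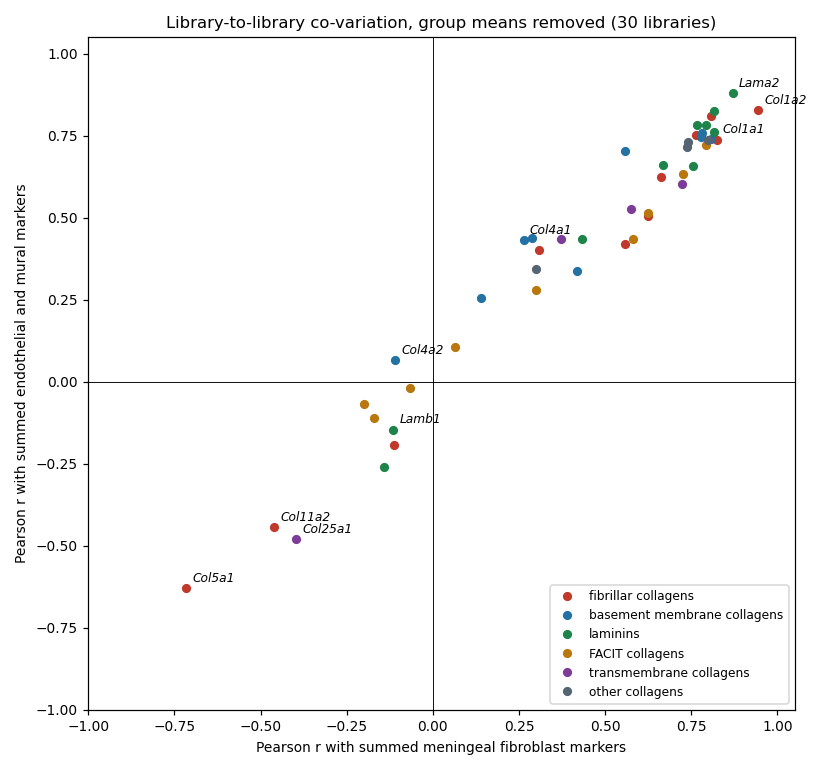
Pearson r of 47 members with the meningeal fibroblast marker sum (horizontal) and with the endothelial and mural marker sum (vertical), from deviations from group means over 30 libraries, coloured by class. Col1a2 (0.944) and Lama2 (0.871) lie at the right, Col5a1 (-0.716) at the left, and Col4a2 near 0 on both axes.

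**Figure D5:**
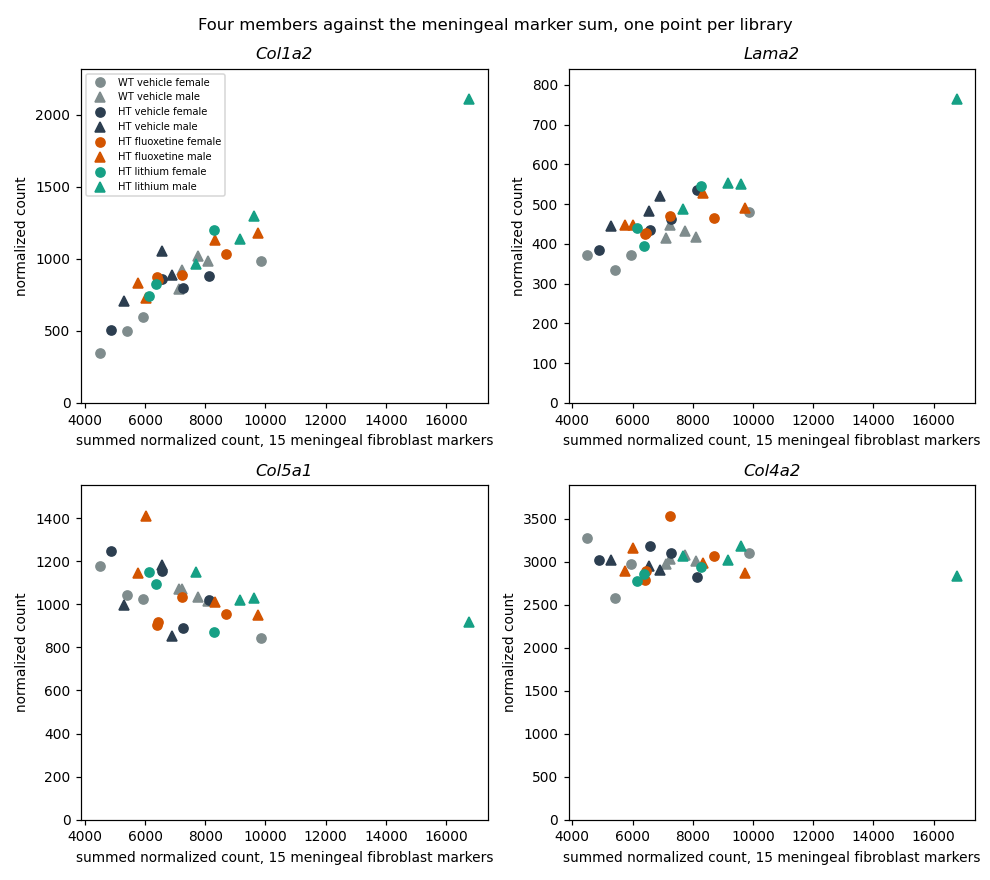
Normalized count of Col1a2, Lama2, Col5a1 and Col4a2 in each of the 30 libraries against the summed normalized count of 15 meningeal fibroblast markers. Libraries with a high sum have high Col1a2 and Lama2 and low Col5a1, and the highest sum, 16764, is an HT lithium library.

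Chains of the same trimer were compared in the same family, with r given again without the 2 libraries farthest from the median of the first gene of each pair. These were HT lithium male 4 and WT vehicle female 2 for pairs led by Lama2, Col9a1, Col4a5 or Col3a1. For Col1a1 they were WT vehicle females 2 and 3, for Col4a1 WT vehicle female 1 and male 2, for Lamb1 HT vehicle female 4 and male 3, and for Col4a3 HT fluoxetine male 4 and WT vehicle male 1, so HT lithium male 4 stayed in those values. Col1a1 and Col1a2, which form type I collagen, had r = 0.922 and rho = 0.921 (0.883 without its 2). Col4a1 and Col4a2 had r = 0.595 and rho = 0.541 (0.505 without the 2), and Lamb1 and Lamc1, shared by the common laminins, r = 0.615 and rho = 0.604 (0.541 without the 2). Lama2 and Lamc1 had r = 0.53 and rho = 0.398 (0.373 without the 2), and Col9a1 and Col9a2 r = 0.612 and rho = 0.588 (0.449 without the 2). Some gene neighbours were added after their values were seen, and others, such as Col9a1 and Col19a1 at 9205 bases, were not compared. Col4a5 and Col4a6, whose starts lie 1308 bases apart, had r = 0.674 and rho = 0.562 (0.477 without the 2). Col3a1 and Col5a2, whose ends rather than starts lie 24614 bases apart, had r = 0.67 and rho = 0.607 (0.511 without the 2). Col4a3 and Col4a4, across the 71 bases shown, had r = 0.22 and rho = 0.223 (permutation, adjusted 0.284 and 0.27) and 0.0517 without the 2, at the low counts given above.

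Enzymes and partners of these proteins were examined as listed groups. Of 30 genes of collagen biosynthesis (prolyl and lysyl hydroxylases, chaperones, procollagen proteases and lysyl oxidases) 29 were tested, and 0 were called by limma in the genotype, fluoxetine or lithium comparison. In the genotype comparison 19 had a positive difference (median 0.0639) and 3 an unadjusted p under 0.05 (10.3% against 6.6% of all genes), with Colgalt2, a collagen galactosyltransferase, at -0.18 (limma adjusted p = 0.297) P3h4 at 0.19 (0.617) and Plod2 at 0.30 (0.702). With fluoxetine 17 were positive (median 0.00678), 0 had an unadjusted p under 0.05 (2.63% of all genes did), and the smallest p belonged to Crtap (0.14) and Loxl2 (-0.35). With lithium 18 were positive (median 0.0544) and 2 had an unadjusted p under 0.05 (6.9% against 5.72% of all genes), Pcolce, an enhancer of procollagen cleavage, at 0.35 and P3h2 at 0.30 (limma adjusted p = 0.858 each).

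Of 24 basement membrane partners and receptors 23 were tested, and 0 were called in the same 3 comparisons. Bcam, a laminin receptor, had the smallest p in all 3, at -0.16 for genotype (limma adjusted p = 0.172), 0.08 for fluoxetine (1) and 0.14 for lithium (0.750). Second were the integrins Itga1 (0.15, 0.590) for genotype, with Itga7 (0.21, 0.663) next, and Itga11 (0.18, 1) for fluoxetine, and the peroxidasin Pxdn (-0.12, 0.858), which cross-links type IV collagen, for lithium. Positive differences numbered 19, 13 and 16 of 23, with 3, 0 and 2 at an unadjusted p under 0.05 (13%, 0% and 8.7%, against the same 6.6%, 2.63% and 5.72% of all genes). Of 16 matrix proteases and inhibitors 14 were tested, with 9, 7 and 6 positive, 2, 0 and 1 at an unadjusted p under 0.05 (14.3%, 0% and 7.14%) and 0 called in these 3 comparisons. Timp1, an inhibitor of matrix metalloproteinases, averaged 11.7 ± 4.86 (SD, n = 7) with the mutation and 5.65 ± 2.25 (SD, n = 8) without it in vehicle libraries, a log2 difference of 0.98 (limma adjusted p = 0.121), with Timp4 next at 0.11 (0.527). The WT mean of Timp1 lay under the limit of 10, so the gene was tested only through the HT libraries where it was high, and its difference and its place in these counts follow in part from that limit. With fluoxetine Mmp9 (0.25) and Timp4 (0.06) came first (limma adjusted p = 1 each), and with lithium Mmp14 (0.29) and Ctsk (0.30) (0.873 each). In HT fluoxetine against WT vehicle 2 of the 14 were called (14.3% against 1.49% of all genes), Timp1, with the same limit, at 1.08 (limma adjusted p = 0.0317) and Timp4 at 0.16 (0.0420).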

How the data were processed

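Prefrontal cortex of WT and HT mice was profiled by strand-specific mRNA sequencing (30 libraries, 8 groups by genotype, treatment and sex, 1 batch label). The authors deposited 1 table of gene counts divided by a size factor per library; the tools named in the submitters' processing notes are DESeq2 1.19.11, R 3.6.0 and Salmon 0.11.2, with the build GRCm38. This deposited signal was read as normalized counts, because 100% of values became whole reads (within 0.01) after rescaling. Their annotation, filters and use of strand were not given in the sources used here. Summed normalized counts were 26796660 to 29412576 per library. Identifiers matched GENCODE M21 symbols for 18227 of 18240 genes.

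Genes with a mean of at least 10 were fitted with limma 3.58.1 (trend, robust) in R 4.3.3 on log2(value + 1), with 8 group means over all 30 libraries, sex-averaged contrasts and Benjamini-Hochberg adjustment over 16824 genes, and called at an adjusted p under 0.05. Fold changes are on that log2 scale, which understates changes of low genes. Alternatives were edgeR 4.0.16 and DESeq2 1.42.0 on recovered reads, other pseudocounts, filters, scaling and covariates, and leaving out each library. Correlations used 100000 resamples, 2-sided (SciPy 1.17.1). The limma fit was tested on simulated data for the genotype comparison only, with a single spread shared by all genes. The correlations and the other fits were not tested in this way.

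Values were given for members called in the genotype, fluoxetine or lithium comparison, the 4 with the smallest p in each, and the most abundant of each class. Col1a1, Col1a2, Col2a1, Col3a1, Col4a3, Col24a1 and other members named beyond these were chosen after their values were seen. For the biosynthesis, partner and protease lists, called genes and the 2 smallest p for genotype, fluoxetine and lithium were named. Called marker genes were not named. They were 2 of 6 oligodendrocyte precursor genes for genotype (0.731% of all genes) and 1 of 6 microglial genes in HT fluoxetine against WT (1.49%). In HT lithium against WT (1.97%) they were 2 of 6 precursor, 1 of 10 endothelial and 1 of 10 mural genes. Members and lists were chosen with earlier results of these data known. Sequences came from RefSeq tables for GRCm38. Replicate numbers were not used to pair libraries. Values of 1 member are counted in the sums over members but not reported here, and the plots show the other 47.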

Additional observations from a re-analysis of the deposited data

Results flagged for a closer look

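In groups of 4 libraries, a library was marked where its gap to the nearest other exceeded Dixon's critical value as a share of the group's range. Of 96 groups tested over 16 members 4 were marked, and chance marks about 1 in 20. Col16a1 was at 1543 in HT lithium male 4, with the next library at 1049. Col5a2 was at 408.3 in HT vehicle female 1, with the next at 271.3. Col9a2 was at 310.6 in the same HT vehicle female 1, with the next at 204.3. Lama1 was at 183.2 in HT vehicle female 3, with the next at 164.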

How the results depend on the processing

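Among the counts and single-gene differences followed through the alternatives, no sign reversed, but the signs of members at large were not fixed: positive differences numbered 19 in place of 35 for lithium and 15 in place of 23 for fluoxetine with the meningeal covariate. With a mean of at least 50 required, 68 genes were called for genotype and 165 for HT fluoxetine against WT vehicle, and 1 member in each treated comparison with WT (Col26a1 and Lama2), because Col4a4 was not tested. Fitting only the groups compared called 11 genes for fluoxetine, 5 for lithium and 208 for HT lithium against WT, with 0 members in either treated comparison with WT. The meningeal covariate called 246 genes and 3 members (Lama2, Col1a2 and Col4a4) for genotype, 10 genes for fluoxetine, 387 for HT fluoxetine against WT and 210 genes with 1 member (Col1a2) for HT lithium against WT. The endothelial and mural covariate called 163 genes and 0 members for HT lithium against WT, and 2 genes for fluoxetine by sex. Leaving out both HT lithium male 4 and female 1 of HT vehicle, 0 members were called for HT lithium against WT. With edgeR 1 member was called in each treated comparison with WT (Col26a1 and Lama2). DESeq2 called 12 genes for fluoxetine, 1 for fluoxetine by sex, and 5 members for HT lithium against WT (Lama2, Col24a1, Col9a2, Col16a1 and Col4a4). The causes of these shifts were not tested. Leaving out each library gave 88 to 140 genes and 0 to 1 members for genotype, 3 to 13 genes for fluoxetine, 8 to 16 for lithium, 0 to 2 for lithium by sex, 176 to 283 genes and 0 to 2 members for HT fluoxetine against WT, and 196 to 503 genes and 0 to 6 members for HT lithium against WT. It called 0 members in the other comparisons. Same-numbered libraries gave correlations of both signs. The correlation of their deviations ran from -0.345 to 0.278 for genotype, -0.43 to 0.446 for fluoxetine and -0.204 to 0.0839 for lithium. Of these libraries 2 of 7, 3 of 7 and 1 of 6 correlated best with their own number. Fluoxetine females 1, 3 and 4 stood at 0.413, 0.392 and 0.446 with their HT vehicle namesakes, and female 2 at -0.108. So few pairs cannot decide whether the numbers pair libraries. Title numbers were used, and those of some HT lithium females differ from the numbers in their library names. With the replicate block 0 members were called for HT fluoxetine against WT (limma adjusted p = 0.0509 for Col4a4 and 0.0625 for Col26a1) and 1 (Lama2) for HT lithium against WT, and no other count of members changed. The low counts of Col4a4 and Col4a3 limit the precision of their values.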
